A study of Homo sapiens with 12 samples.

Results

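The 36 genes described here encode the heat shock and folding chaperones of human cells, together with HSF1, the transcription factor that drives their heat-inducible members. They were picked by gene symbol from the 46427 genes of the deposited table, and 35 of them had enough reads to be tested, among 16283 genes in all. RNA had been sequenced from HT1080 cells, an established human fibrosarcoma line, at 4 conditions of siRNA transfection with 3 libraries each. The conditions were a scrambled siRNA, siTRIP12 against the HECT-family ubiquitin ligase TRIP12, siOTUD5 against the deubiquitylase OTUD5, and siTRIP12+siOTUD5. The labels give neither the siRNA sequences, amounts and times nor whether replicates came from separate cultures, so p-values measure only the spread between these libraries. The labels name no heat shock, and all cells had been transfected with siRNA. In such bulk libraries fewer cells of a kind and less RNA per cell cannot be told apart.

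Molecular chaperones bind unfolded protein and release it in cycles driven by ATP. HSP70 proteins work with J-domain partners and nucleotide exchange factors, HSP90 proteins take clients onward with cochaperones, and the CCT chaperonin, fed by prefoldin, folds actin and tubulin inside a double ring. Under proteotoxic stress HSF1 is released from its chaperones, forms trimers and binds heat shock elements, which are repeats of GAA in alternating orientation, and so raises the inducible genes, whereas chaperonin and prefoldin subunits are made at steady levels in growing cells.

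The genes were grouped by role as the regulator HSF1, 10 inducible HSF1 targets, 9 genes of the HSP70 and HSP90 machinery, 8 CCT subunits, 5 prefoldin subunits, and 3 chaperones of the mitochondrial matrix. The last 3, HSPA9, HSPD1 and HSPE1, are not cytosolic and are described apart. HSPB1, the small heat shock protein HSP27, was counted at 0 reads in 10 libraries and at 2 reads in each of siOTUD5 replicates 2 and 3, so it was not tested. The mesenchymal markers VIM (3477 TPM, the authors' level per transcript length and library total), SPARC (507) and CD44 (294) were abundant, while COL1A2 and THY1 were below 0.1 TPM on average. EPCAM, CDH1 and GRHL2, which define epithelial cells, were also below 0.1 TPM, although the keratin genes KRT8 (340) and KRT18 (234) were expressed. The 8 epithelial markers summed to 646 to 656 TPM in scrambled, 462 to 531 in siTRIP12, 578 to 623 in siOTUD5 and 546 to 580.2 with both siRNAs. The 7 mesenchymal markers summed to 4326 to 4833, 3812 to 4058, 4481 to 4594 and 3901 to 4163 TPM in the same order, and the part of these shifts in the results below was not tested.

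Libraries held 37912312 to 43881471 reads, of which the 36 genes took 1.63% to 2.07%. TRIP12 fell to 13.0% of its scrambled level in siTRIP12 and 16.5% with both siRNAs, and OTUD5 fell to 18.6% in siOTUD5 and 18.2% with both. OTUD5 itself was higher in siTRIP12, at 123.4% of scrambled (log2 0.30 ± 0.07, edgeR adjusted p = 0.00346), and its log2 difference between siOTUD5 and siTRIP12 was -2.73 ± 0.08, beside -2.43 ± 0.08 between siOTUD5 and scrambled. Scrambled replicate 3 stood apart from the other scrambled libraries: 32 of the 35 tested members (91.4%) had their highest scrambled value there, against 41.0% of all genes tested. The median excess of that library over the mean of replicates 1 and 2 was 0.18 on the log2 scale for the members and 0.01 for all genes. In that library levels also ran lower in longer transcripts (Spearman's rho across genes -0.31, against 0.07 and 0.06 in replicates 1 and 2 and between -0.22 and 0.20 in the knockdown libraries). The members' transcripts were short. Relative to the median length over genes of the deposited table, their median was 0.805, against 1.07 for all genes tested. A further edgeR fit removed a trend of level on transcript length from each library. Over all comparisons, 225 member results kept their status, 2 lost a call at adjusted p under 0.05 and 18 gained one. Calls over all genes rose too. The lost calls were those of DNAJB6 and STIP1 in siOTUD5. How much of any single change came from transcript length was not tested. Counts of members against scrambled are given with and without this library.

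Heat shock elements near the starts of the genes are shown first. The genes were not chosen by these letters, but known targets of HSF1, which binds such elements, were among those chosen. A share above that of all genes therefore follows in part from the choice. Reference windows from 250 bases before to 50 after a RefSeq transcription start (GRCh38.p14) were at hand for 32 of the 36 genes, and HSF1, STUB1, CCT6A and PFDN2 had none. A heat shock element of 3 units was searched as GAA, TTC and GAA, or TTC, GAA and TTC, with any 2 bases between units; these are reverse complements, so both strands were covered. It was present for 6 of the 32 genes (18.75%), against 0.608% of 27305 genes with a window. Those 6 were HSP90AA1, DNAJA1, HSPA8, HSP90AB1, DNAJB6 and HSPD1, and 0 of 11 chaperonin and prefoldin genes held it. For HSP90AA1, HSP90AB1 and HSPD1, which have more than 1 RefSeq start, the matches lie before the most downstream start only, and so downstream of the other starts. The 6 genes had 9 matches in all, which are printed below 5′ to 3′ on the strand of the gene, with the motif in capitals and 8 flanking bases where the window allowed.
HSP90AA1, 88 bases before the most downstream start, chr14:102087112-102087140, minus strand: gagggttcTTCCGGAAGGTTCgggaggct
DNAJA1, from base 4 of the transcript, chr9:33025268-33025296, plus strand: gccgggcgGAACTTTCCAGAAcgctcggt
HSPA8, 230 bases before the start, chr11:123062346-123062374, minus strand: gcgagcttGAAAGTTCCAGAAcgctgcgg
HSPA8, 55 bases before the start, chr11:123062171-123062199, minus strand: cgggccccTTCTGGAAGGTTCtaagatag
HSP90AB1, 165 bases before the most downstream start, chr6:44247770-44247798, plus strand: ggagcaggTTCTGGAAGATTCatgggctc
HSP90AB1, 112 bases before the most downstream start, chr6:44247823-44247851, plus strand: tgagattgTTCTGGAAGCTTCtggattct
DNAJB6, 131 bases before the start, chr7:157336865-157336893, plus strand: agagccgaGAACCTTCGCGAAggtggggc
HSPD1, 245 bases before the most downstream start, chr2:197500065-197500090, minus strand: gcattTTCTGGAAAGTTCtggaaccg
HSPD1, 240 bases before the most downstream start, chr2:197500060-197500088, minus strand: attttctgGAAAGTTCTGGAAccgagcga

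Both HSPD1 matches overlap each other. The shorter form of 2 units, GAA and TTC or TTC and GAA with any 2 bases between, which is contained in every match of 3 units, was present for 18 of the 32 genes (56.25%) and for 16.177% of all genes with a window. It was in 8 of 10 inducible targets and in 4 of 11 chaperonin and prefoldin genes, namely TCP1, CCT2, CCT4 and PFDN6. HSPH1, BAG3, HSPA4, PTGES3, AHSA1 and HSPE1 held neither form in the window. The HSPD1 matches printed above reach to position 197500085 on chromosome 2. They lie upstream of HSPE1, just before its window, which runs from 197500129 to 197500428 around a start at 197500379. A match describes letters of the reference and not a bound site, and elements farther from the start were not searched.

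HSPA1A and HSPA1B, the classical inducible HSP70 genes, carry the 2-unit form once each, and both copies are shown because the genes are near-identical neighbours on chromosome 6. Capitals mark the motif, and 235 of the 250 bases before the start (94.0%) were identical between the genes.
HSPA1A, 106 bases before the start, chr6:31815429-31815452, plus strand: aaaccctgGAATATTCccgacctg
HSPA1B, 105 bases before the start, chr6:31827625-31827648, plus strand: aacccctgGAATATTCccgacctg

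The transcripts share sequence too: 71.2% of 75-base windows of the HSPA1A transcript and 73.2% of those of HSPA1B also occur in another gene of the annotation, chiefly the other of the pair. How the authors' counting split such reads is not stated, so the sum of the pair is given beside the single genes. Among the other members, such shared windows reached 22.3% for HSPE1, 15.1% for DNAJB6 and 10.1% for HSPD1, and stayed below 8% elsewhere.

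In scrambled cells levels per transcript length overlapped widely between inducible and constitutive genes. HSPA8, the constitutive HSP70, was highest at 3404 ± 86.7 TPM (SD, n = 3), followed by the HSP90 genes HSP90AB1 (2082 ± 41.1) and HSP90AA1 (1424 ± 62.7), HSPD1 (1262 ± 99.7) and HSPE1 (1053 ± 69.0). CCT subunits lay between 410 and 771 TPM and prefoldin subunits between 52.2 and 561. HSPA1B (87.7 ± 1.98 TPM) and HSPA1A (71.5 ± 2.54) were below HSF1 itself (103 ± 6.07), as were the constitutive STUB1 (89.7 ± 4.65), DNAJA2 (69.1 ± 0.860) and PFDN4 (52.2 ± 5.46), and the lowest tested members were HSPB8 (25.6 ± 1.94) and DNAJB4 (15.3 ± 1.29). For HSPA1A and HSPA1B this order holds only for the single genes as deposited, with an unstated split of shared reads. Added together, the pair was above HSF1.

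**Figure D1:**
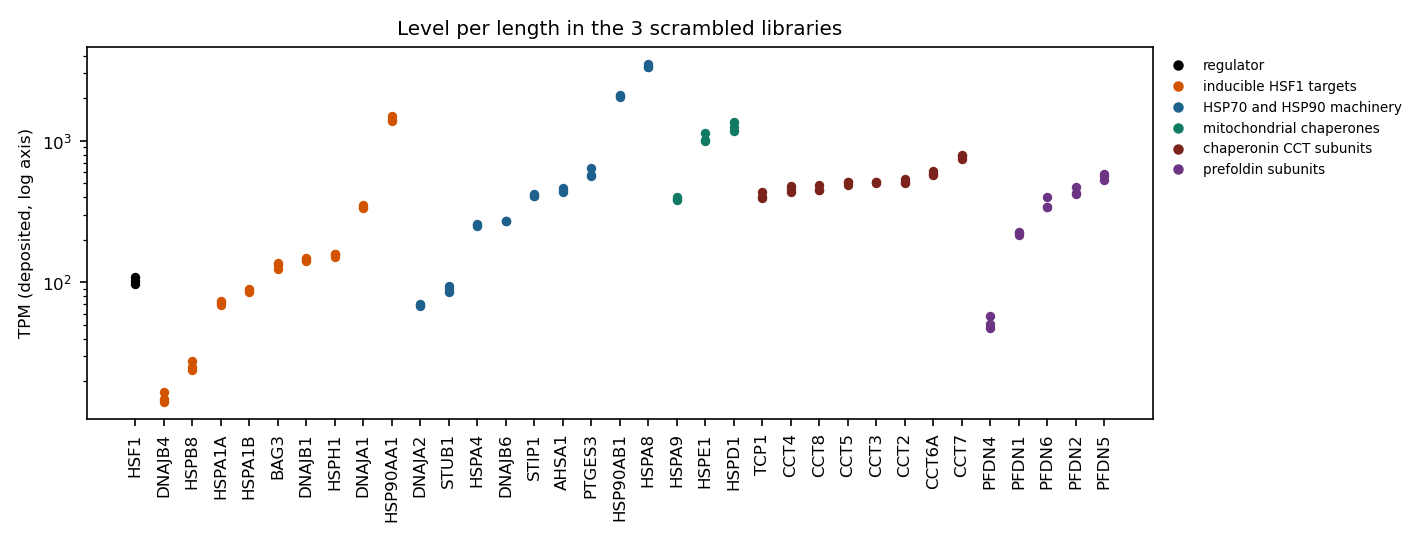
Level of each tested member in the 3 scrambled libraries (points), as deposited TPM on a log axis, ordered within each role group (color). HSPA8 stands highest at 3404 TPM and DNAJB4 lowest at 15.3, and the CCT subunits form a narrow band from 410 to 771.

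Chaperone transcripts that changed were mostly lower, by small amounts. Against scrambled, 14 of the 35 tested members fell and 3 rose in siTRIP12, 18 fell and 0 rose in siOTUD5, and 13 fell and 0 rose with both siRNAs (edgeR quasi-likelihood test, adjusted p under 0.05 over all genes). The background was 17.4% of all genes called lower and 14.5% higher in siTRIP12, 11.9% and 11.4% in siOTUD5, and 16.2% and 14.7% with both, while the members called lower were 40.0%, 51.4% and 37.1%. The members' median log2 fold change was -0.11, -0.15 and -0.11, beside 0.01, -0.01 and 0.00 for all genes. These comparisons share the scrambled libraries. Counted by libraries alone, 15 members lay wholly below and 3 wholly above scrambled in siTRIP12 (all genes 21.1% and 20.3%), 18 and 0 in siOTUD5 (19.8% and 19.4%), and 16 and 1 with both (21.6% and 20.8%). A fit on only the groups compared called 6 members in siTRIP12, all lower (HSPH1, BAG3, HSPA4, PTGES3, HSPE1 and CCT4). In siOTUD5 such a fit lost the calls of HSPA1B, DNAJB6, STIP1, HSPA9 and PFDN6, and with both siRNAs those of HSPD1 and PFDN6. The share of all genes called in these fits is not given here, so the losses cannot be set against it. Without scrambled replicate 3, 9 fell and 5 rose in siTRIP12, 15 fell and 0 rose in siOTUD5, and 12 fell and 2 rose with both, and the medians were -0.05, -0.12 and -0.07. With a trend of level on transcript length removed from each library, 17 fell and 3 rose, 16 fell and 0 rose, and 13 fell and 0 rose. Upper-quartile scaling, which moved the median of all genes to 0.05, 0.00 and 0.03, gave 9 lower and 3 higher, 16 and 0, and 13 and 1. Calls over all genes moved as well. They were 5194, 3781 and 5024 in the main fit and 5270, 3556 and 4980 without scrambled replicate 3. With the length trend removed they were 5843, 4192 and 5435, and with upper-quartile scaling 5196, 3771 and 4936. The changes were small: the largest among members was -0.50 on the log2 scale, and against a minimum fold of 1.2 only PTGES3 was called in siTRIP12, only CCT2 in siOTUD5, and HSPH1, HSPE1 and CCT2 with both.

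**Figure D2:**
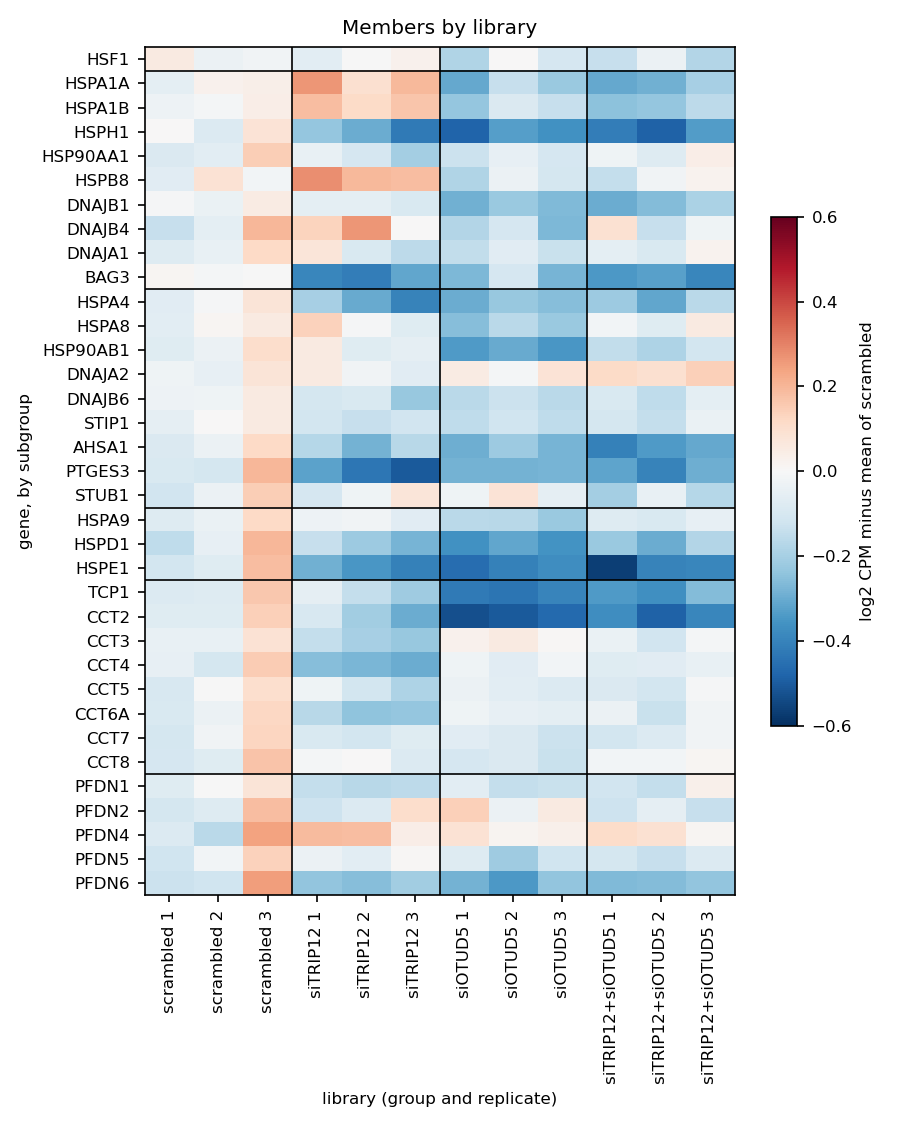
Each tested member (lines of the map) in each of the 12 libraries (columns), as log2 CPM minus the mean of the 3 scrambled libraries. Scrambled replicate 3 is on the high side for 32 of 35 members among the scrambled libraries, and the siOTUD5 columns are low for TCP1 and CCT2, whose fitted changes were -0.42 and -0.50, with the other CCT subunits between -0.11 and 0.03.

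Other comparisons set the knockdowns directly against each other. Their fold changes do not use scrambled cells, but the scrambled libraries enter the shared spread behind their p-values. Against siTRIP12, 9 members were lower and 4 higher in siOTUD5, where 13.9% and 15.9% of all genes were called. With upper-quartile scaling the split was 10 lower and 2 higher. With both siRNAs, 5 members were lower and 1 higher than in siTRIP12 (background 6.93% and 8.78%), and 1 was higher and 0 lower than in siOTUD5 (background 3.35% and 5.07%). These counts rested on single libraries: the 6 calls against siTRIP12 became 2 without siTRIP12+siOTUD5 replicate 1 and 12 without scrambled replicate 3. The 1 call against siOTUD5 became 4 without scrambled replicate 3 and 2 without scrambled replicate 1. It became 0 without scrambled replicate 2, siTRIP12 replicate 2, or any 1 siOTUD5 or siTRIP12+siOTUD5 library. Without scrambled replicate 3 the calls over all genes rose too, from 2557 to 3846 against siTRIP12 and from 1370 to 2507 against siOTUD5.

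HSF1 mRNA was not called in any comparison. Its normalised read count, in CPM (counts scaled to library totals that were adjusted by TMM, the trimmed mean of M-values), was 109, 103 and 103 in scrambled, 100.4, 105 and 107 in siTRIP12, 92.7, 105 and 97.96 in siOTUD5, and 95.5, 102 and 93.0 with both siRNAs. The siTRIP12 and siOTUD5 libraries overlapped scrambled, while those with both siRNAs lay just below it. Fitted log2 fold changes were -0.01 ± 0.06, -0.09 ± 0.06 and -0.11 ± 0.06 (± SE, adjusted p = 0.888, 0.282 and 0.142). These values are of mRNA, and HSF1 is regulated largely as a protein, which was not measured here.

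The inducible HSF1 targets moved in both directions in siTRIP12. Of 9 tested, HSPA1A, HSPA1B and HSPB8 rose, HSPH1 and BAG3 fell, and 4 were not called, with a median of -0.06. The 2 lower are 22.2% of the 9, near the 17.4% of all genes called lower, and the 3 higher are 33.3%, beside 14.5% of all genes. In siOTUD5 5 of the 9 fell (HSPA1A, HSPA1B, HSPH1, DNAJB1 and BAG3) and 0 rose, with a median of -0.19, where 11.9% of all genes were called lower. With both siRNAs 5 fell (again HSPA1A, HSPA1B, HSPH1, DNAJB1 and BAG3) and 0 rose, with a median of -0.21, beside 16.2% of all genes called lower. HSPA1A and HSPA1B share most of their transcript sequence, so these counts and shares may hold 1 signal as 2 genes. Summed as 1 gene, the pair was called higher in siTRIP12 and lower in siOTUD5 and with both (edgeR adjusted p = 0.0231, 0.0191 and 0.00218). Without scrambled replicate 3 the counts were 4 higher and 2 lower, 0 and 4, and 0 and 5.

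HSPA1A stood at 78.0, 82.7 and 83.2 CPM in scrambled, at 97.6, 87.0 and 93.1 in siTRIP12, at 65.6, 73.8 and 69.7 in siOTUD5, and at 65.7, 66.6 and 70.8 with both siRNAs. All siTRIP12 libraries lay above scrambled, and all libraries with siOTUD5 below it. HSPA1A rose by 0.19 ± 0.06 on the log2 scale in siTRIP12 (adjusted p = 0.0226) and fell by 0.22 ± 0.06 in siOTUD5 (adjusted p = 0.0124) and by 0.26 ± 0.06 with both (adjusted p = 0.00287). Set directly against siTRIP12, its log2 difference was -0.41 ± 0.06 in siOTUD5 (adjusted p = 5.65e-05) and -0.45 ± 0.06 with both (6.59e-05). Both of these differences stayed past the threshold with any library left out.

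HSPA1B was at 102, 104 and 107 CPM in scrambled, 119, 113 and 117.2 in siTRIP12, 88.9, 98.3 and 94.9 in siOTUD5, and 88.0, 89.0 and 93.6 with both. Its groups were separated in the same order as those of HSPA1A, with log2 changes of 0.15 ± 0.05 (adjusted p = 0.0287), -0.15 ± 0.05 (0.0404) and -0.21 ± 0.05 (0.00458). Summed as 1 gene, the pair went from 180 to 191 CPM in scrambled to between 200.3 and 216 in siTRIP12, between 155 and 172 in siOTUD5 and between 154 and 164 with both. The summed changes were 0.16, -0.18 and -0.24 (adjusted p = 0.0231, 0.0191 and 0.00218). The rises of single genes in siTRIP12 rested on few libraries. HSPA1A, HSPA1B and HSPB8 lost these calls in a fit on the scrambled and siTRIP12 libraries alone. HSPA1A also lost it without scrambled replicate 1 or siTRIP12 replicate 1 or 3 (highest adjusted p = 0.105 over all alternatives), HSPA1B without scrambled replicate 1 or 2 or siTRIP12 replicate 1 or 3 (0.0868), and HSPB8 without scrambled replicate 1 or siTRIP12 replicate 1 (0.0916). The siOTUD5 fall of HSPA1B was lost in 10 of 22 alternatives, among them the omission of any scrambled library (highest adjusted p = 0.195), and that of HSPA1A without siOTUD5 replicate 1 (0.0782).

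HSPH1, the large HSP110 that exchanges nucleotide on HSP70, was at 359, 338 and 379 CPM in scrambled, 305, 292 and 267 in siTRIP12, 257, 285 and 279 in siOTUD5, and 269, 256 and 284 with both. Every knockdown library lay below every scrambled library. The falls were 0.32 ± 0.06, 0.39 ± 0.06 and 0.41 ± 0.06 on the log2 scale (adjusted p = 0.00085, 0.000249 and 9.27e-05), and they kept their calls with any library left out. 

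BAG3, an exchange factor that links HSP70 to autophagy, was nearly constant in scrambled at 160.3, 158 and 159 CPM. It was at 121, 119 and 128 in siTRIP12, 132, 148 and 131 in siOTUD5, and 125, 127 and 121 with both, again with no overlap with scrambled. Log2 changes were -0.37 ± 0.05 (adjusted p = 4.26e-05), -0.21 ± 0.05 (0.00741) and -0.35 ± 0.05 (8.97e-05). Between the single knockdowns BAG3 was higher in siOTUD5 by 0.16 ± 0.05 (adjusted p = 0.0332), the opposite order to that of HSPA1A. That difference was lost without siTRIP12 replicate 1 or 2 or siOTUD5 replicate 2 (0.10 without the last), with upper-quartile scaling and with no filter on low counts (highest adjusted p = 0.211), and the siOTUD5 fall was lost without siOTUD5 replicate 3 (0.0509).

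DNAJB1, the J-domain partner (HSP40) of inducible HSP70, was at 153, 150.05 and 159 CPM in scrambled, 148, 148 and 145 in siTRIP12, 126, 132 and 128 in siOTUD5, and 125, 129 and 135 with both. Libraries with siOTUD5 lay clearly below both scrambled and siTRIP12. The change was -0.07 ± 0.05 in siTRIP12 (adjusted p = 0.289), whereas DNAJB1 fell by 0.26 ± 0.05 in siOTUD5 (0.000781) and by 0.25 ± 0.05 with both (0.000718). Against siTRIP12 it was lower by 0.19 ± 0.05 in siOTUD5 (0.00554) and by 0.18 ± 0.05 with both (0.0153, lost without siTRIP12+siOTUD5 replicate 1).

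HSP90AA1, the inducible HSP90, was at 2045, 2085 and 2414 CPM in scrambled, 2113, 2030.1 and 1886 in siTRIP12, 1989.9, 2099.6 and 2031 in siOTUD5, and 2139, 2061 and 2239.6 with both. All groups overlapped, and it was not called in any comparison (log2 -0.12 ± 0.07, -0.10 ± 0.07 and -0.02 ± 0.07 against scrambled, adjusted p = 0.185, 0.319 and 0.827). DNAJA1, whose protein supports constitutive HSP70, was not called in any comparison either (-0.06, -0.12 and -0.04). HSPB8, a small heat shock protein that works with BAG3, ranged from 21.5 to 23.9 CPM in scrambled and from 25.6 to 27.3 in siTRIP12, a rise of 0.22 ± 0.07 (adjusted p = 0.0277), and was 0.33 ± 0.07 lower in siOTUD5 than in siTRIP12 (0.00238). DNAJB4, a relative of DNAJB1, was not called against scrambled but was 0.32 ± 0.10 lower in siOTUD5 than in siTRIP12 (0.0176, lost without siTRIP12 replicate 2 or siOTUD5 replicate 3), and it was called higher in siTRIP12 without scrambled replicate 3 (log2 0.24, adjusted p = 0.0467).

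**Figure D3:**
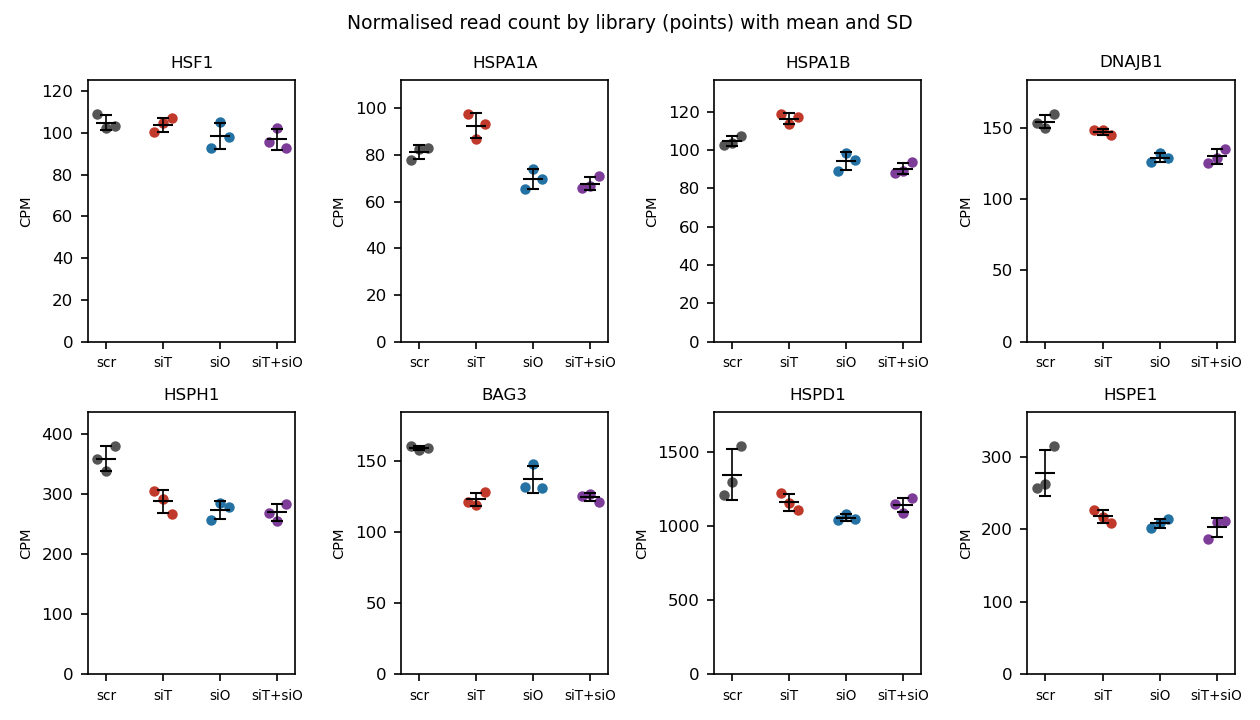
Normalised read counts (CPM, axes from 0) of 8 members in every library (points) with the mean and SD of each group, where scr is scrambled, siT is siTRIP12 and siO is siOTUD5. HSPA1A and HSPA1B are above scrambled in siTRIP12 and below it with siOTUD5, HSPH1 and BAG3 are below scrambled in all knockdown groups, and HSF1 was not called in any comparison.

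In the HSP70 and HSP90 machinery 4 of 9 genes fell in siTRIP12, 7 in siOTUD5 and 3 with both, and 0 rose (medians -0.12, -0.21 and -0.14), where 17.4%, 11.9% and 16.2% of all genes were called lower. With scrambled replicate 3 left out, the counts were 3, 5 and 3 lower, 1 rose with both siRNAs (DNAJA2), and the medians were -0.09, -0.18 and -0.07. PTGES3, the p23 cochaperone that stabilises closed HSP90, was at 528, 523 and 647 CPM in scrambled, 451, 417 and 397 in siTRIP12, 463, 463 and 464 in siOTUD5, and 453, 426 and 459 with both. No knockdown library reached the scrambled range, whose upper end was set by replicate 3. PTGES3 fell by 0.42 ± 0.07, 0.29 ± 0.07 and 0.34 ± 0.07 (adjusted p = 0.000209, 0.00709 and 0.0014). Without scrambled replicate 3 the fall in siOTUD5 was 0.18 (0.0112).

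AHSA1, the activator of the HSP90 ATPase, was at 268, 278 and 309.8 CPM in scrambled, 253, 234 and 253 in siTRIP12, 233, 245 and 235 in siOTUD5, and 215, 225 and 231 with both. Its libraries were lowest with both siRNAs, without overlap with the siTRIP12 and siOTUD5 libraries. Falls were 0.21 ± 0.06, 0.27 ± 0.06 and 0.35 ± 0.06 (adjusted p = 0.00902, 0.00277 and 0.000169). The first call was lost without siTRIP12 replicate 2 and in a fit on only the groups compared. The double knockdown was not called against siTRIP12 (-0.14 ± 0.06, adjusted p = 0.101) or siOTUD5 (-0.09 ± 0.06, 0.402).

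HSPA4, another HSP110 exchange factor, fell by 0.30 ± 0.06 in siTRIP12, 0.26 ± 0.06 in siOTUD5 and 0.23 ± 0.06 with both (adjusted p = 0.000879, 0.00416 and 0.00687). The abundant pair HSPA8 and HSP90AB1 fell in siOTUD5 and were not called in the other knockdowns. HSP90AB1 ranged from 2393 to 2713 CPM in scrambled and from 1977 to 2045 in siOTUD5 (-0.33 ± 0.06, adjusted p = 0.000482), and HSPA8 from 3476 to 3769 and from 3046 to 3246 (-0.21 ± 0.06, 0.0176). In siTRIP12 their changes were -0.03 and 0.02, and both were lower in siOTUD5 than in siTRIP12, by 0.31 ± 0.06 (0.000583) and 0.24 ± 0.06 (0.00691). With both siRNAs HSPA8 was 0.20 ± 0.06 higher than in siOTUD5 (adjusted p = 0.0474, lost in 10 of 22 alternatives), and HSP90AB1 was 0.18 ± 0.06 higher (0.0594, not called; 0.00523 without scrambled replicate 3). The siOTUD5 call of HSPA8 was lost without siOTUD5 replicate 1 or 3 (highest adjusted p = 0.0795), and its difference from siTRIP12 without siTRIP12 replicate 1 (0.056).

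The remaining members of the machinery had smaller values. STIP1, which hands clients from HSP70 to HSP90, had log2 values of -0.12, -0.14 and -0.10, and DNAJB6, a J-domain protein that restrains aggregation, of -0.14, -0.15 and -0.10. STIP1 was called in siOTUD5, and DNAJB6 in siTRIP12 and siOTUD5, and each of these calls was lost in 11 to 15 of 22 alternatives. DNAJA2 and the chaperone-linked ubiquitin ligase STUB1 were not called in any comparison, and DNAJA2 had a log2 value of 0.12 with both siRNAs (0.16 and called without scrambled replicate 3).

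CCT and prefoldin subunits were compared with the inducible targets, as the constitutive side of the set. In siTRIP12 6 of 13 subunits fell and 0 rose (median -0.14, against -0.06 for the inducible genes). In siOTUD5 and with both siRNAs 3 of 13 fell, beside 5 of 9 inducible genes, and their medians were -0.10 and -0.07, beside -0.19 and -0.21. All genes called lower were 17.4%, 11.9% and 16.2% in the 3 comparisons. The subunit values depended on scrambled replicate 3. When it was left out, 3 fell and 1 rose in siTRIP12, 3 fell and 0 rose in siOTUD5, and 3 fell and 1 rose with both. The subunit medians were then -0.056, -0.019 and -0.012, beside 0.0047, -0.13 and -0.19 for the inducible genes. Direct comparison of siOTUD5 with siTRIP12 gave 1 inducible gene higher and 5 lower with a median of -0.19, and 3 subunits higher and 2 lower with a median of -0.00. Of all genes 15.9% were called higher and 13.9% lower there, beside 11.1% and 55.6% of the inducible genes and 23.1% and 15.4% of the subunits. The difference of the medians (inducible minus subunits) was 0.08 in siTRIP12, -0.09 in siOTUD5, -0.14 with both and -0.19 between the single knockdowns. With HSPA1A and HSPA1B summed, the last pair of these was -0.068 and -0.13. The counts and shares of inducible genes called lower hold HSPA1A and HSPA1B as 2 genes. These medians describe chosen genes, and no test of the 2 groups against each other was made.

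Within CCT, the ring that holds a copy of every subunit type, different subunits changed in the single knockdowns. CCT2 was at 448, 448 and 519 CPM in scrambled, 439.9, 407 and 383 in siTRIP12, 327, 332 and 341 in siOTUD5, and 364, 336 and 359 with both. All knockdown libraries were below scrambled, the siOTUD5 ones most. Falls were 0.20 ± 0.06 (adjusted p = 0.0212), 0.50 ± 0.06 (2.83e-05) and 0.42 ± 0.06 (9.77e-05). Without scrambled replicate 3 the first was 0.13 and not called (0.0614). It was also lost without siTRIP12 replicate 2 or 3, with upper-quartile scaling and in a fit on only the groups compared.

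TCP1, the alpha subunit, was at 431, 434 and 510.2 CPM in scrambled, 439, 414 and 394 in siTRIP12, 341, 337 and 347 in siOTUD5, and 361, 354 and 381 with both. Only the siTRIP12 libraries overlapped scrambled. TCP1 was not called in siTRIP12 (-0.14 ± 0.06, adjusted p = 0.103) and fell by 0.42 ± 0.06 in siOTUD5 (0.000137) and by 0.33 ± 0.06 with both (0.000839). The other 6 subunits were not called in siOTUD5 or with both siRNAs, with log2 values from -0.11 to 0.03 in siOTUD5.

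CCT3, CCT4 and CCT6A showed the other order. They fell in siTRIP12 by 0.19 ± 0.05, 0.28 ± 0.06 and 0.22 ± 0.06 (adjusted p = 0.00863, 0.00133 and 0.00802) and had values of 0.03, -0.04 and -0.05 in siOTUD5. The siTRIP12 calls of CCT3 and CCT6A were lost in a fit on only the groups compared (adjusted p = 0.0596 and 0.0552). Compared directly, siOTUD5 was higher than siTRIP12 for CCT3 (0.22 ± 0.05, adjusted p = 0.00368), CCT4 (0.24 ± 0.06, 0.00453) and CCT6A (0.17 ± 0.06, 0.0353) and lower for TCP1 (-0.28 ± 0.06, 0.00248) and CCT2 (-0.30 ± 0.06, 0.00168). The fold changes of these direct comparisons do not involve scrambled cells, but the spread behind their p-values does. The direct differences of TCP1, CCT2, CCT3 and CCT4 held in all alternatives but the minimum fold of 1.2. That of CCT6A was lost in 8 of 22. CCT5, CCT7 and CCT8 were not called in any comparison.

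**Figure D4:**
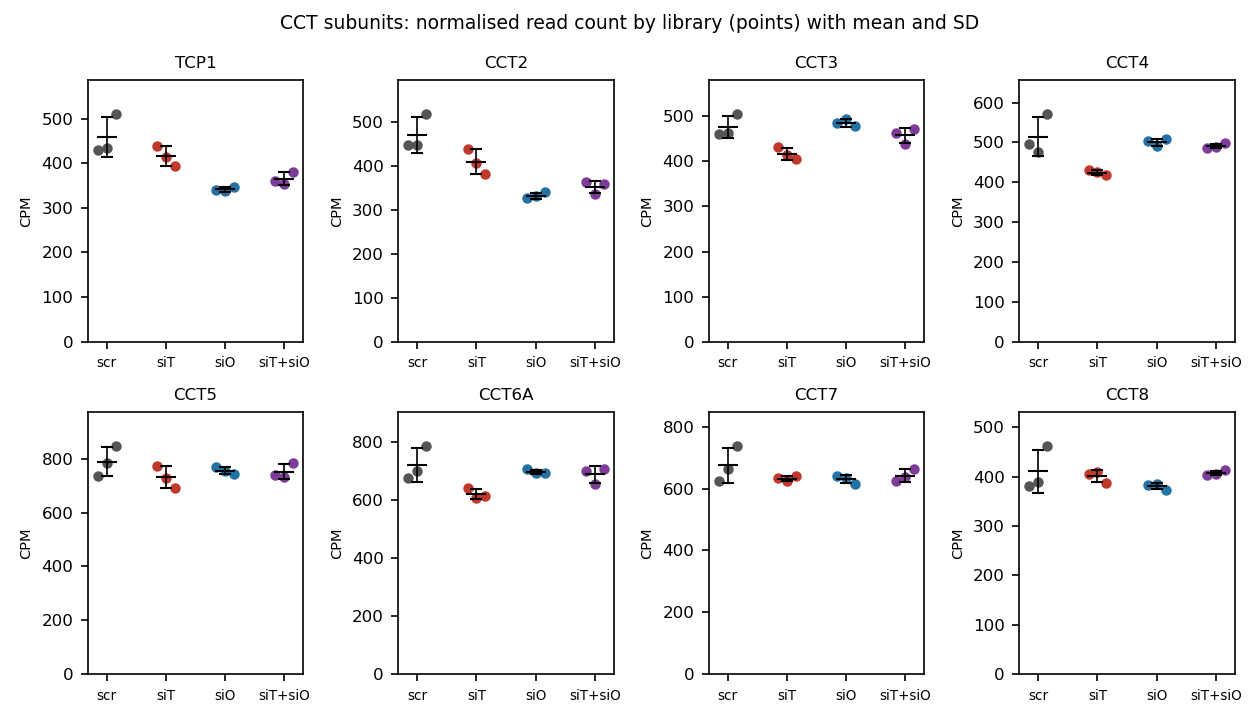
Normalised read counts (CPM, axes from 0) of the 8 CCT subunits in every library (points) with the mean and SD of each group, where scr is scrambled, siT is siTRIP12 and siO is siOTUD5. TCP1 and CCT2 are low in the libraries with siOTUD5, and CCT3, CCT4 and CCT6A are low in siTRIP12.

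Since the ring needs its subunits in equal number, the spread of their levels per length was also read. TCP1 was the lowest subunit in 11 of 12 libraries (CCT4 in siTRIP12 replicate 1) and CCT7 the highest in all 12. The ratio of highest to lowest TPM was 1.84 to 1.95 in scrambled, 1.89 to 2.07 in siTRIP12, 2.26 to 2.40 in siOTUD5 and 2.21 to 2.29 with both. All libraries with siOTUD5 lay above all others. The summed TPM of the 8 subunits was 4117 to 4374 in scrambled, 3716 to 4159 in siTRIP12, 3812 to 3899 in siOTUD5 and 3742 to 4064 with both.

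Prefoldin, which passes nascent actin and tubulin to CCT, had its clearest falls in PFDN6. PFDN6 was at 99.4, 100.1 and 129 CPM in scrambled, 92.4, 91.0 and 94.1 in siTRIP12, 89.3, 85.7 and 92.4 in siOTUD5, and 90.6, 90.8 and 92.5 with both. The knockdown libraries lay just under scrambled replicates 1 and 2 and far under replicate 3. Falls were 0.25 ± 0.08, 0.30 ± 0.08 and 0.26 ± 0.08 (adjusted p = 0.0215, 0.00974 and 0.015). Leaving out scrambled replicate 3 gave log2 values of -0.11 (0.0693, not called), -0.16 (0.0126) and -0.13 (0.0361). Each of the PFDN6 calls was lost in a fit on only the groups compared.

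PFDN1 was at 133, 139.7 and 148 CPM in scrambled, 127, 125 and 126 in siTRIP12, 134, 127 and 128 in siOTUD5, and 129.5, 127 and 143 with both. Only siTRIP12 was separate from scrambled, with a fall of 0.16 ± 0.06 (adjusted p = 0.0381) that was lost in 9 of 22 alternatives. PFDN2, PFDN4 and PFDN5 were not called, although PFDN4 was called higher in siTRIP12 (0.26) and with both (0.19) without scrambled replicate 3. 

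Of the mitochondrial chaperones, the HSP60 gene HSPD1 and its cochaperonin HSPE1 are neighbours on chromosome 2 that are read in opposite directions from a shared promoter region. HSPE1 was at 257, 263 and 315 CPM in scrambled, 227, 218 and 209 in siTRIP12, 202, 209 and 214 in siOTUD5, and 187, 210.0 and 211 with both. It fell by 0.35 ± 0.07, 0.42 ± 0.07 and 0.46 ± 0.07 (adjusted p = 0.000906, 0.000383 and 0.000104), with no overlap between scrambled and knockdown libraries. 

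HSPD1 was at 1206, 1296 and 1536 CPM in scrambled, 1218, 1152 and 1104 in siTRIP12, 1039, 1079.5 and 1045 in siOTUD5, and 1146, 1089 and 1185 with both. Its scrambled libraries were widely spread, and siTRIP12 overlapped them. Falls were 0.22 ± 0.07, 0.35 ± 0.07 and 0.24 ± 0.07 (adjusted p = 0.0283, 0.00191 and 0.0171). Without scrambled replicate 3 the first and last were -0.11 (0.101) and -0.13 (0.0502), no longer called. Both of these calls were also lost in a fit on only the groups compared. HSPA9, the mitochondrial HSP70, fell in siOTUD5 by 0.19 ± 0.05 (0.0182) and had values of -0.04 and -0.08 in the other groups. Its siOTUD5 call was lost without siOTUD5 replicate 3 and in a fit on only the groups compared.

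**Figure D5:**
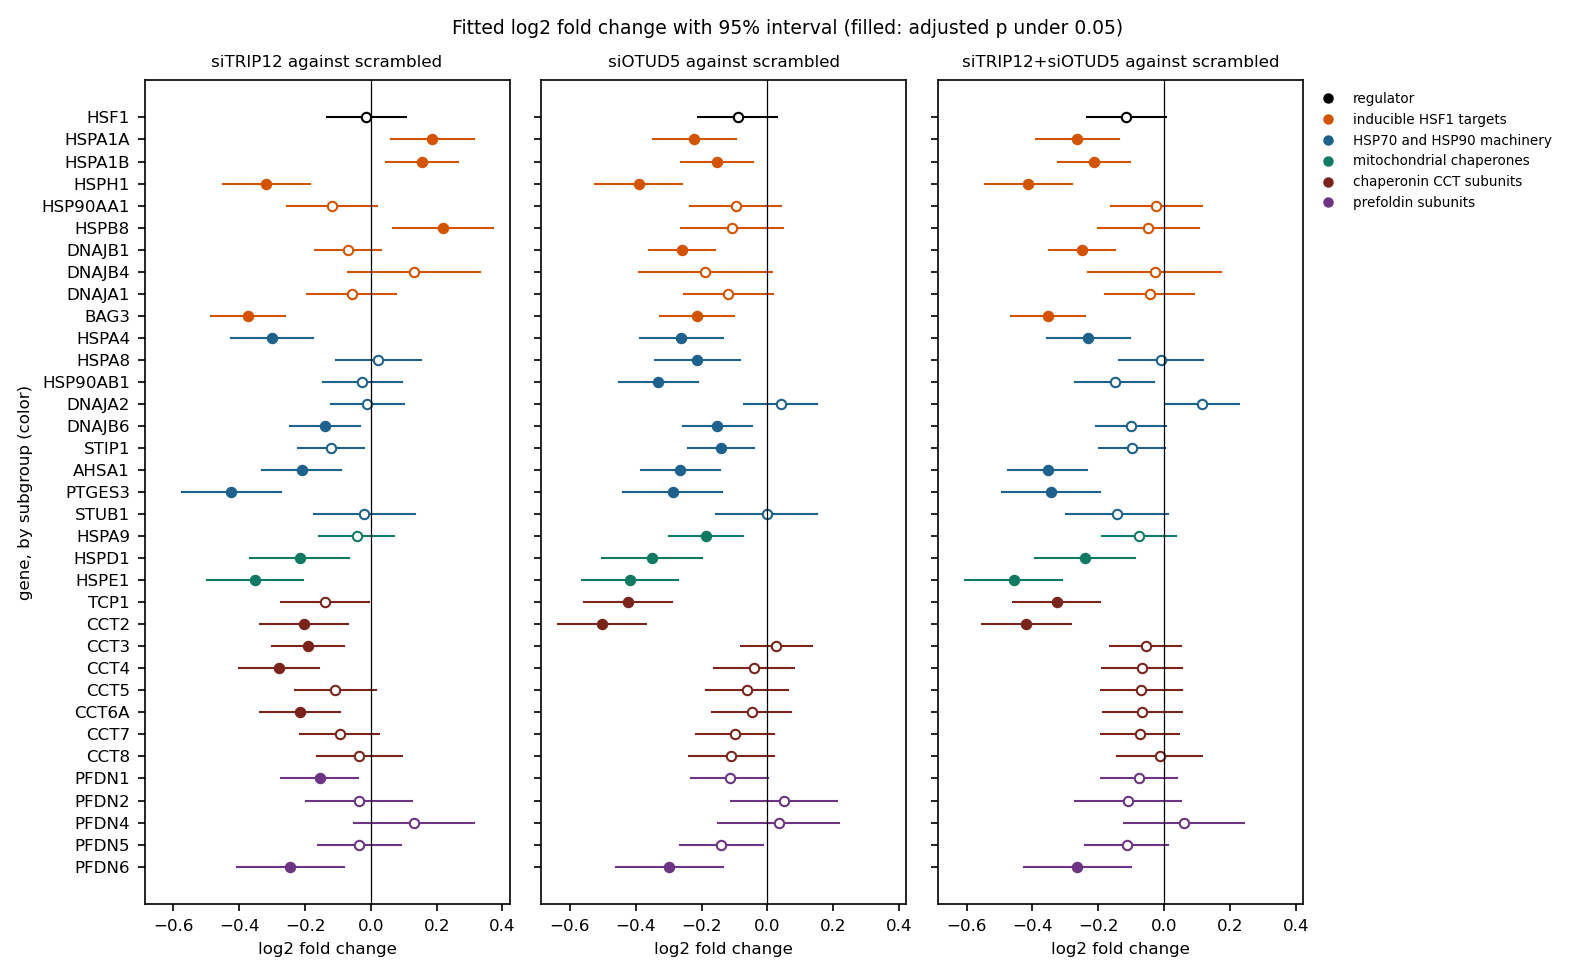
Fitted log2 fold change of the 35 tested members against scrambled with its 95% interval, in 3 panels by knockdown, colored by role and filled where adjusted p was under 0.05. Filled points to the right of 0 occur only in siTRIP12 (HSPA1A, HSPA1B, HSPB8), and TCP1 and CCT2 stand left of the other CCT subunits in siOTUD5 and with both siRNAs.

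The interaction asks whether the knockdowns add up on the log2 scale, as the change from siOTUD5 to both siRNAs minus the change from scrambled to siTRIP12. It was called for 3 of 35 members, all positive (background 4.61% higher and 3.55% lower). HSPA4 had 0.33 ± 0.08 (adjusted p = 0.0215), PTGES3 0.37 ± 0.10 (0.031) and HSPH1 0.30 ± 0.09 (0.0468). Each of these genes fell with either siRNA, and the fall with both was smaller than the sum of the single falls. For HSPA1A and HSPA1B the interaction was -0.23 ± 0.08 and -0.21 ± 0.07 (adjusted p = 0.11 and 0.0824, not called). The scrambled libraries enter this value too, and the members' median was 0.15, beside 0.01 for all genes. Without scrambled replicate 3 the members' median was 0.09, and 7 members were called higher and 1 lower. All genes called then rose from 1329 to 1829.

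Chaperone genes outside the set were read from a list of 66, of which 62 were tested. In siTRIP12 13 fell and 8 rose (median -0.03), in siOTUD5 17 fell and 5 rose (-0.11), and with both siRNAs 16 fell and 5 rose (-0.09). In siTRIP12 these are 21.0% lower and 12.9% higher, near the 17.4% and 14.5% of all genes. The lower shares were 27.4% in siOTUD5 and 25.8% with both, beside 11.9% and 16.2% of all genes. The HSP70 exchange factor BAG2 fell by 0.42 ± 0.07 in siTRIP12 (adjusted p = 0.000229), as did the HSP70-interacting ST13 (-0.30 ± 0.06) and DNAJC9 (-0.32 ± 0.06), a histone cochaperone. SERPINH1, the collagen chaperone HSP47 of the endoplasmic reticulum, fell in siOTUD5 by 0.41 ± 0.05 (3.61e-05) and HSPA2, an HSP70 best known from the testis, by 0.88 ± 0.12 (5.12e-05), with GRPEL1, the exchange factor of HSPA9, at -0.43 ± 0.07 (0.000327). With both siRNAs SERPINH1 was at -0.34 ± 0.05 and HSPA2 at -0.70 ± 0.12. TBCD, a tubulin cofactor that acts after CCT, rose in siTRIP12 (0.31 ± 0.05), siOTUD5 (0.31 ± 0.05) and with both (0.38 ± 0.05, 4.89e-05), and DNAJC3, a J-domain protein of the endoplasmic reticulum, rose with both (0.38 ± 0.07, 0.000553).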

How the data were processed

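mRNA of 12 libraries was measured with a stranded kit, per the labels' protocols. The cell line label counts upward from sample to sample, and HT1080 was taken from the series design. The submitters' processing notes name HISAT2, StringTie and GRCh38, without versions or roles. The authors deposited whole-number read counts per gene, with TPM and FPKM that they had scaled to transcript length and library total. The deposited counts gave all tests, and the authors' TPM gave levels between genes. Counts divided by TPM gave each gene's relative transcript length, and the FPKM were not used. Whether reads or fragments were counted is not stated.

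Genes passed filterByExpr of edgeR 4.0.16 (R 4.3.3), and TMM factors scaled the totals. The robust quasi-likelihood fit held 1 mean per group over the 12 libraries, leaving 8 degrees of freedom at a common biological variation of 0.0822. P-values were adjusted by Benjamini-Hochberg over 16283 genes and called under 0.05. An exact two-sided permutation test of 3 against 3 libraries cannot go below p = 0.1, the value that HSPA1A, HSPH1 and CCT2 reached against scrambled. Replicates were compared by chi-square per gene (4.99 to 33.2), and no library repeated another. Totals were 37912312 to 43881471 reads.

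Members and lists were chosen with earlier results of these data known. Library values are given for HSF1, HSPA1A, HSPA1B, DNAJB1, HSPH1, HSP90AA1, BAG3 and the 2 members of every other role group with the smallest p against scrambled, and 4 genes per comparison are named from the further chaperones. Marker lists of leukocytes, endothelial and muscle cells summed to at most 22.3, 0.922 and 0.973 TPM. Alternatives were other scalings and filters, DESeq2 1.42.0, limma-voom (limma 3.58.1), a minimum fold of 1.2, a replicate block, only the groups compared, HSPA1A and HSPA1B summed, and each library left out. Removal of a transcript-length trend per library was added after seeing the data. Promoter windows are from RefSeq (GRCh38.p14), and windows of 75 bases shared between genes from GENCODE transcripts. The scripts were tested on simulated data with 200 changed genes, where 16% of 1.2-fold and 96% of 1.5-fold changes were recovered. More genes were called in the real data, so recovery there may differ. A member not called may still have changed by a small amount.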

Additional observations from a re-analysis of the deposited data

Results flagged for a closer look

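An interaction of the siRNAs, tested as the change from siOTUD5 to siTRIP12+siOTUD5 minus the change from scrambled to siTRIP12, differed from 0 for 3 members. The interaction of HSPH1 was 0.296 (SE 0.0884, edgeR adjusted p = 0.0468) and was lost in 12 of 21 alternatives. HSPA4 had an interaction of 0.332 (SE 0.0841, adjusted p = 0.0215), lost in 6. PTGES3 had 0.369 (SE 0.1, adjusted p = 0.031), lost in 7. In each case the alternatives that lost the call included the omission of siTRIP12 replicate 3 or siOTUD5 replicate 1, and the range of adjusted p reached 0.135, 0.0704 and 0.0875. The cause was not tested.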

How the results depend on the processing

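Of 71 calls of single members over the 7 tests, 38 held under every alternative except the minimum fold of 1.2, and 0 changed direction. With that minimum fold the calls were 1 in siTRIP12 (from 17), 1 in siOTUD5 (18), 3 with both (13), 1 for both against siTRIP12 (6), 0 for both against siOTUD5 (1), 1 for siOTUD5 against siTRIP12 (13) and 0 for the interaction (3). Fits on only the groups compared called 6 in siTRIP12 and 4 for both against siOTUD5. The share of all genes called in these fits is not given here. The comparison of both against siOTUD5 gave 2 with upper-quartile scaling, a mean of at least 50 reads, DESeq2 or limma-voom. It gave 3 without the length trend and 0 with HSPA1A and HSPA1B summed. All genes called there were 1370 in the main fit, 1378 with upper-quartile scaling and 1948 without the length trend. The interaction gave 9 with DESeq2 and 10 (9 higher and 1 lower) without the length trend. Over all genes, the interaction calls rose from 1329 to 1848 without the length trend. The share of all genes called with DESeq2 is not given here. The median difference of inducible genes and subunits with the HSPA1 pair summed was -0.068 with both siRNAs (from -0.14) and -0.13 for siOTUD5 against siTRIP12 (from -0.19). The heat shock element of 2 units was found for 18 genes where that of 3 was found for 6. Leaving out each library gave 11 to 17 calls in siTRIP12, 12 to 18 in siOTUD5, 12 to 15 with both, 2 to 12 for both against siTRIP12, 0 to 4 for both against siOTUD5, 10 to 16 for siOTUD5 against siTRIP12 and 0 to 8 for the interaction; the median differences ranged from 0.06 to 0.11, from -0.13 to -0.06, from -0.18 to -0.11 and from -0.20 to -0.16. The 11 calls came without siTRIP12 replicate 1, 2 or 3 in turn, the 12 in siOTUD5 without siOTUD5 replicate 3, and for both against siTRIP12 the 2 without siTRIP12+siOTUD5 replicate 1 and the 12 without scrambled replicate 3. Both against siOTUD5 gave 0 without scrambled replicate 2, siTRIP12 replicate 2, or any 1 siOTUD5 or siTRIP12+siOTUD5 library, and 4 without scrambled replicate 3. The lowest interaction counts came without siTRIP12 replicate 2 or 3, siOTUD5 replicate 1 or 3 or siTRIP12+siOTUD5 replicate 3, and the highest without scrambled replicate 3. Over all genes, omission of scrambled replicate 3 raised the calls from 2557 to 3846 for both against siTRIP12 and from 1370 to 2507 for both against siOTUD5. It raised them from 4848 to 6004 for siOTUD5 against siTRIP12 and from 1329 to 1829 for the interaction. The causes were not tested.

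Deviations of same-numbered libraries correlated between -0.07 and 0.05, and those of differently numbered libraries between -0.07 and 0.06. The labels do not say whether replicate numbers pair the libraries. With the replicate number as a block, both against siOTUD5 gave 0 calls, and 5 of 245 single results lost their call. HSPB1 had 4 reads in all, and the cause was not tested.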
